A study of Homo sapiens with 8 samples.

Results

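The genes described here make the building blocks of DNA and RNA, and their RNA was measured in HuCCT1 cells, an established human cholangiocarcinoma line, with and without knockdown of BEX2. They were chosen by name, as the non-control probes of the array named TYMS, TK1, DUT, MTHFD1, GMPS, PAICS, GART, CAD or UMPS. Earlier results of these data were known when they were chosen. All 9 genes were found among 34809 gene names on the array, and all 9 were among the 20464 genes tested. RNA was measured on 8 single-colour Agilent arrays, 2 for each of 4 vectors. The control cells carried the vector shControl or shNontarget and the BEX2-knockdown cells carried shBEX2-1 or shBEX2-2. No cell without a vector was measured, and no drug or other agent is named in the labels. The study's methods describe retroviral short hairpin vectors and a hairpin against luciferase as control, without saying which control vector that was. The target sequences given there for the BEX2 hairpins overlap almost wholly when read on opposite strands, so they are not independent sites. Nothing says that arrays of the same vector were from cultures grown apart, and p-values measure only the spread between these arrays.

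Thymidylate, the nucleotide found in DNA but not in RNA, is made either from deoxyuridylate by a methyl transfer from folate or by salvage of thymidine. Purine rings are built stepwise from ribose phosphate with carbons carried by folate, while the pyrimidine ring is built first and joined to ribose phosphate afterwards. Demand for these nucleotides is highest in S phase, when DNA is copied, and enzymes of thymidylate synthesis are targets of antimetabolite drugs.

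The processed intensity of each spot was taken to log2 and the 75th percentile of its array was subtracted, so that a level of 0 is that percentile and a difference of 1 is a doubling of signal. As an intensity, that percentile ranged from 667 to 838 for control cells and from 441 to 631 for BEX2-knockdown cells. Depending on the array, 59.8% to 64.6% of spots exceeded background clearly, and each probe used for the 9 genes did so on all 8 arrays. A gap of over 1 (log2) separated the arrays of shNontarget in 34.9% of genes and those of the other vectors in at most 1.76%. All 8 arrays lay on 1 slide, with the control arrays in row 1 and the BEX2-knockdown arrays in row 2, so slide row and knockdown cannot be told apart. Keratins and the other biliary epithelial markers, 6 of 6, were above background on every array, whereas 0 of 5 hepatocyte markers were, ALB and TTR being above background on none. Of the fibroblast markers 1 of 5 was above background on all 8 arrays, of the endothelial markers 2 of 4, and of the leukocyte markers 1 of 5. That leukocyte marker, CD14, rose by 0.54 on the log2 scale with knockdown (adjusted p = 0.0296 from limma), and its part in the results was not tested.

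BEX2, the targeted gene, read -3.36 and -3.91 with shControl and -2.70 and -3.77 with shNontarget. It read -5.21 and -5.54 with shBEX2-1 and -4.92 and -4.60 with shBEX2-2. Every knockdown array was below every control array, and the log2 fold change over all of them was -1.63 (SE 0.32, adjusted p = 0.0116 from limma). The BEX2 probe was not well above background on either shBEX2-1 array, so this value rests in part on readings near background. With shBEX2-1 the signal read 3.83-fold lower than in control cells (adjusted p = 0.0336 from limma). The probe's own signal was above the lowest one well above background on those arrays. The 3.83-fold is thus the fitted value from 2 arrays, with their sampling error, and not a lower limit. With shBEX2-2 the log2 fold change of -1.32 did not pass the test (adjusted p = 0.0813 from limma).

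Each probe is a stretch of 60 bases. DUT and GART have 2 tested probes each, and the sequences below show what those probes read. The capital marks the base at which the DUT probes differ where they overlap.
DUT probe A_23_P88484: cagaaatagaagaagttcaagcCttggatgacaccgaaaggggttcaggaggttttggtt
DUT probe A_24_P160874: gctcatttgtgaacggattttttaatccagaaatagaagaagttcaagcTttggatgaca
GART probe A_23_P80098: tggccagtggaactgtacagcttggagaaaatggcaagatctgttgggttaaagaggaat
GART probe A_24_P301846: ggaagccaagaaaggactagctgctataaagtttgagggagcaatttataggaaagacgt
GMPS probe A_23_P21033: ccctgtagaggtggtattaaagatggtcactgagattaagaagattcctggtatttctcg
The DUT probes share 33 bases with 1 substitution, C23T, counted from 1 at the 5′ end of A_23_P88484. DUT lies on chromosome 15, but the array file places A_24_P160874 on chromosome 19 (hg19, chr19:52955093-52955152) and gives no position for A_23_P88484. Likewise the array file places the GMPS probe on chromosome 4 (hg19, chr4:8176615-8176674) although GMPS lies on chromosome 3. A genome sequence was not used here, and what else these probes read was not tested.

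The promoters of 5 genes are shown because they span the range of responses: TYMS and TK1 with the largest changes, DUT and MTHFD1 with smaller ones, and GART with none that passed the test. Each is the 250 bases before the transcription start in RefSeq (GRCh38.p14), at chr18:657403-657652 on the plus strand for TYMS, chr17:78187205-78187454 on the minus strand for TK1, chr15:48330845-48331094 on the plus strand for DUT, chr14:64388103-64388352 on the plus strand for MTHFD1 and chr21:33542893-33543142 on the minus strand for GART. Capitals mark the motifs found when both strands were searched. For E2F factors the letters TTCCCGC were searched. A further E2F form was TTGGCGC in letters. The E-box was searched as CACGTG throughout. The CCAAT box was searched by those letters of its name. The GC box was searched as GGGCGG in the same way.
TYMS promoter: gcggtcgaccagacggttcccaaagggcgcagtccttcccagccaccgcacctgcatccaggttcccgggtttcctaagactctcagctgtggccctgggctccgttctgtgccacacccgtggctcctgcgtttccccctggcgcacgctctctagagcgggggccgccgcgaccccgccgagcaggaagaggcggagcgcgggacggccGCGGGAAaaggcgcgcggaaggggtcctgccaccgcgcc
TK1 promoter: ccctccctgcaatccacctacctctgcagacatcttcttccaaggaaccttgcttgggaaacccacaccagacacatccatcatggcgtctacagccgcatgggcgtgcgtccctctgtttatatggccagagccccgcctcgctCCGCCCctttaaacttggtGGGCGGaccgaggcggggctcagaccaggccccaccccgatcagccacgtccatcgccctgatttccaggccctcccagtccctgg
DUT promoter: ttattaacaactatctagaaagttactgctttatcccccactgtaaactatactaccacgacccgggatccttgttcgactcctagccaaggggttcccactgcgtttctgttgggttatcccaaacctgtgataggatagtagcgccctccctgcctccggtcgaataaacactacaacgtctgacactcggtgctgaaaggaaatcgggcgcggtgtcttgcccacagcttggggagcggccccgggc
MTHFD1 promoter: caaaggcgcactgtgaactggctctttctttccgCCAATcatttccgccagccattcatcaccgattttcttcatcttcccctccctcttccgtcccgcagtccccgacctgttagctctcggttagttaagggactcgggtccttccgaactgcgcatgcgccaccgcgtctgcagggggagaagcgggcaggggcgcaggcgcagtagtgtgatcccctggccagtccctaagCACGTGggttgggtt
GART promoter: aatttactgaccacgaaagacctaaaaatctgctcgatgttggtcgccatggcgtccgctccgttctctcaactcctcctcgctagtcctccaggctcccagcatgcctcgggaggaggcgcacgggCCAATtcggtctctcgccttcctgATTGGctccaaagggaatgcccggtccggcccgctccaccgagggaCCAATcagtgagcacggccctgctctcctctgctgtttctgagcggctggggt
The TYMS promoter held 1 E2F motif, read on the minus strand from base -39 to base -33. No other of the 9 promoters held either E2F motif in the window searched, which ran on to 50 bases after the start, and 9.33% of all 27305 promoters held one. MTHFD1 had an E-box from base -15 to base -10, a motif held by 7.43% of all promoters. CCAAT boxes, held by 35.7% of all promoters, were found 3 times in GART, 2 times in MTHFD1 and once in CAD. GC boxes, held by 44.6%, were found 4 times in GMPS, 3 times in TK1 and 2 times in CAD. DUT, PAICS and UMPS held none of the motifs in the window searched. Only the first listed window of each gene was searched, although 4 are listed for DUT, 3 each for PAICS and GART and 2 for TK1. A match is a string of letters and not a measured binding site.

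With BEX2 knockdown, 5 of the 9 genes rose and none fell, beside 6.68% of all genes called higher and 6.26% called lower in the same comparison. The 5 were TYMS, TK1, DUT, MTHFD1 and UMPS, called at an adjusted p under 0.05 in the comparison of 4 knockdown with 4 control arrays. The median log2 fold change of the 9 genes was 0.64, against 0.027 for all genes tested. On all 4 knockdown arrays, 6 of the 9 genes were above every control array, PAICS being the sixth, and 11.4% of all genes were. Because the 9 genes were chosen with earlier results known, these shares describe them and are no test of the set. Leaving out either shNontarget array gave 6 called genes, with PAICS added, and leaving out any other single array gave 3, namely TYMS, TK1 and DUT. Of all genes, 23.1% and 21.1% were called in either direction without shNontarget replicate 1 and 2, and 6.07% to 8.32% without another array.

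**Figure D1:**
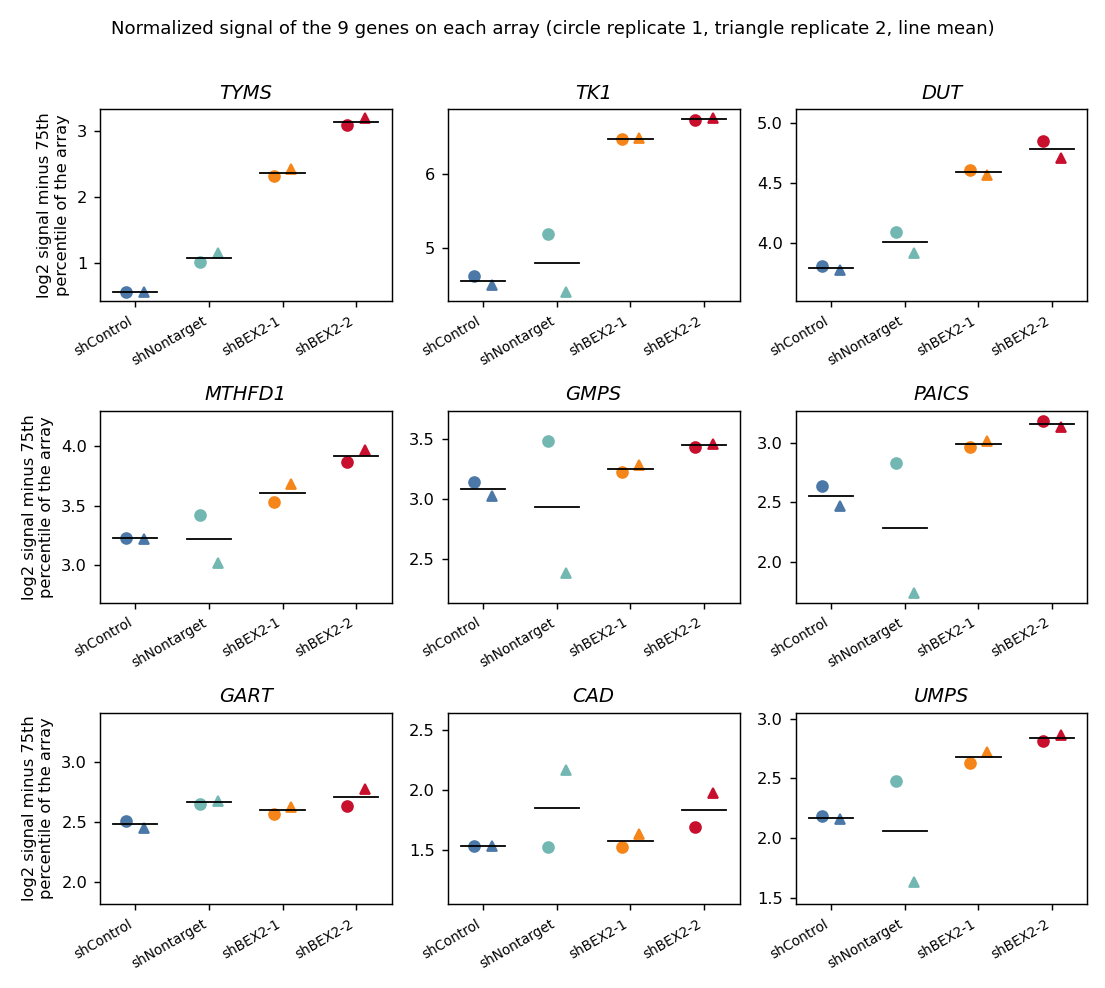
Normalized log2 signal (vertical axis, log2 intensity minus the 75th percentile of the array) of the 9 genes for each vector, with circles for replicate 1, triangles for replicate 2 and a line at the mean of the 2 arrays. Axes differ between genes. TYMS, TK1 and DUT lie apart between control and knockdown arrays, while TK1, GMPS, PAICS, CAD and UMPS vary most between the shNontarget arrays.

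TYMS encodes thymidylate synthase, which methylates deoxyuridylate. It lies on chromosome 18 (GRCh38.p14, chr18:657653-673578). Its normalized log2 signal was 0.57 and 0.56 with shControl and 1.01 and 1.16 with shNontarget. It was 2.31 and 2.42 with shBEX2-1 and 3.09 and 3.20 with shBEX2-2. The lowest knockdown array was thus above the highest control array, and the arrays of a vector lay within 0.15 of each other. The mean was 0.82 ± 0.31 (SD, n = 4) in control and 2.76 ± 0.45 (SD, n = 4) in knockdown cells, a log2 fold change of 1.93 (SE 0.24, adjusted p = 0.00204 from limma) or 3.81-fold. Against shNontarget alone as control the log2 fold change was 1.67 and missed the threshold.

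TK1 encodes the cytosolic thymidine kinase, the salvage enzyme of thymidine, which is known to peak in S phase. It lies on chromosome 17 (GRCh38.p14, chr17:78174079-78187204). The normalized log2 signal was 4.61 and 4.49 with shControl, 5.18 and 4.39 with shNontarget, 6.48 and 6.49 with shBEX2-1, and 6.74 and 6.77 with shBEX2-2. The control and knockdown arrays did not overlap, and the shNontarget arrays differed from each other more than the 4 knockdown arrays did. The means were 4.67 ± 0.36 and 6.62 ± 0.16 (SD, n = 4 each), and the log2 fold change was 1.95 (SE 0.20, adjusted p = 0.00104 from limma) or 3.87-fold. This call held under every one of the 23 alternative ways of processing.

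DUT encodes deoxyuridine triphosphatase, which keeps uracil out of DNA and supplies deoxyuridylate to TYMS. The gene lies on chromosome 15 (GRCh38.p14, chr15:48331095-48343373). Probe A_23_P88484 read 3.81 and 3.78 with shControl, 4.10 and 3.92 with shNontarget, 4.62 and 4.57 with shBEX2-1, and 4.86 and 4.71 with shBEX2-2. All knockdown arrays were above all control arrays, with a log2 fold change of 0.79 (SE 0.13, adjusted p = 0.00632 from limma). Probe A_24_P160874 changed by 0.59 (SE 0.12, adjusted p = 0.0136 from limma over 25071 probes). Before scaling, the intensity of the brighter probe was 10804 and 12186 on the shBEX2-1 arrays, within the 10100.1 to 12773 of the control arrays, and 17865 and 16555 on the shBEX2-2 arrays. Without any scaling the log2 fold change of DUT was 0.34 and missed the threshold, so its rise is one relative to the signal of the whole array.

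MTHFD1 is the cytosolic enzyme that interconverts folate one-carbon units in 3 reactions and supplies them to thymidylate and purine synthesis. It lies on chromosome 14 (GRCh38.p14, chr14:64388353-64460025) and is read by 10 spots on each array. The normalized log2 signal was 3.23 and 3.22 with shControl, 3.42 and 3.02 with shNontarget, 3.53 and 3.68 with shBEX2-1, and 3.86 and 3.96 with shBEX2-2. The groups did not overlap, although the lowest knockdown array and the highest control array were close together. The means of 3.22 ± 0.17 and 3.76 ± 0.19 (SD, n = 4 each) gave a log2 fold change of 0.54 (SE 0.14, adjusted p = 0.0412 from limma). With the replicate number as a block the adjusted p from limma was 0.0554. Without any scaling the log2 fold change of MTHFD1 was 0.090 and missed the threshold, so its rise too is relative to the whole array.

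The purine enzymes did not pass the test. PAICS carries out a pair of adjacent steps of purine ring synthesis and lies on chromosome 4 (GRCh38.p14, chr4:56410507-56464578). It read 2.63 and 2.47 with shControl, 2.83 and 1.74 with shNontarget, 2.97 and 3.01 with shBEX2-1, and 3.18 and 3.13 with shBEX2-2. All knockdown arrays were above all control arrays, yet the shNontarget arrays lay 1.08 apart, and the log2 fold change of 0.65 (SE 0.22) had an adjusted p of 0.0866 from limma. Leaving out either shNontarget array brought PAICS past the threshold, with 0.79 without replicate 1 and 0.43 without replicate 2.

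GMPS makes guanylate from xanthylate and lies on chromosome 3 (GRCh38.p14, chr3:155869430-155944020). It read 3.14 and 3.02 with shControl, 3.49 and 2.38 with shNontarget, 3.22 and 3.29 with shBEX2-1, and 3.43 and 3.46 with shBEX2-2. The shNontarget arrays were the highest and the lowest of all 8. The log2 fold change was 0.34, with a 95% confidence interval from -0.15 to 0.83 (adjusted p = 0.353 from limma). Without shNontarget replicate 1 it was 0.50 and without replicate 2 it was 0.13, and neither passed.

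GART is the enzyme of 3 steps of purine ring synthesis and takes carbons from folate. The gene lies on chromosome 21 (GRCh38.p14, chr21:33503931-33542893). It read 2.51 and 2.45 with shControl, 2.65 and 2.68 with shNontarget, 2.57 and 2.62 with shBEX2-1, and 2.64 and 2.77 with shBEX2-2. The groups overlapped, and the log2 fold change was 0.079 with a 95% confidence interval from -0.18 to 0.33 (adjusted p = 0.707 from limma). Its dimmer probe A_24_P301846, designed on a transcript with another end, gave 0.032 (SE 0.13, adjusted p = 0.905 from limma over probes).

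Of the pyrimidine enzymes, UMPS rose and CAD did not pass the test. CAD starts pyrimidine ring synthesis with 3 activities in 1 protein and lies on chromosome 2 (GRCh38.p14, chr2:27217369-27243943). It read 1.53 and 1.53 with shControl, 1.52 and 2.17 with shNontarget, 1.52 and 1.63 with shBEX2-1, and 1.69 and 1.97 with shBEX2-2. The highest of the 8 was a control array, and the log2 fold change was 0.014 with a 95% confidence interval from -0.39 to 0.42 (adjusted p = 0.973 from limma). Its sign turned with the scaling, being -0.023 after quantile normalization and -0.43 without scaling.

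UMPS completes uridylate and lies on chromosome 3 (GRCh38.p14, chr3:124730452-124749273). It read 2.18 and 2.16 with shControl, 2.48 and 1.64 with shNontarget, 2.63 and 2.72 with shBEX2-1, and 2.81 and 2.86 with shBEX2-2. No control array reached the knockdown arrays. The log2 fold change was 0.64 (SE 0.18, adjusted p = 0.0455 from limma), and with the replicate number as a block the adjusted p was 0.0509. Without any scaling it was 0.19 and missed the threshold, so the rise of UMPS too is relative to the whole array.

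**Figure D2:**
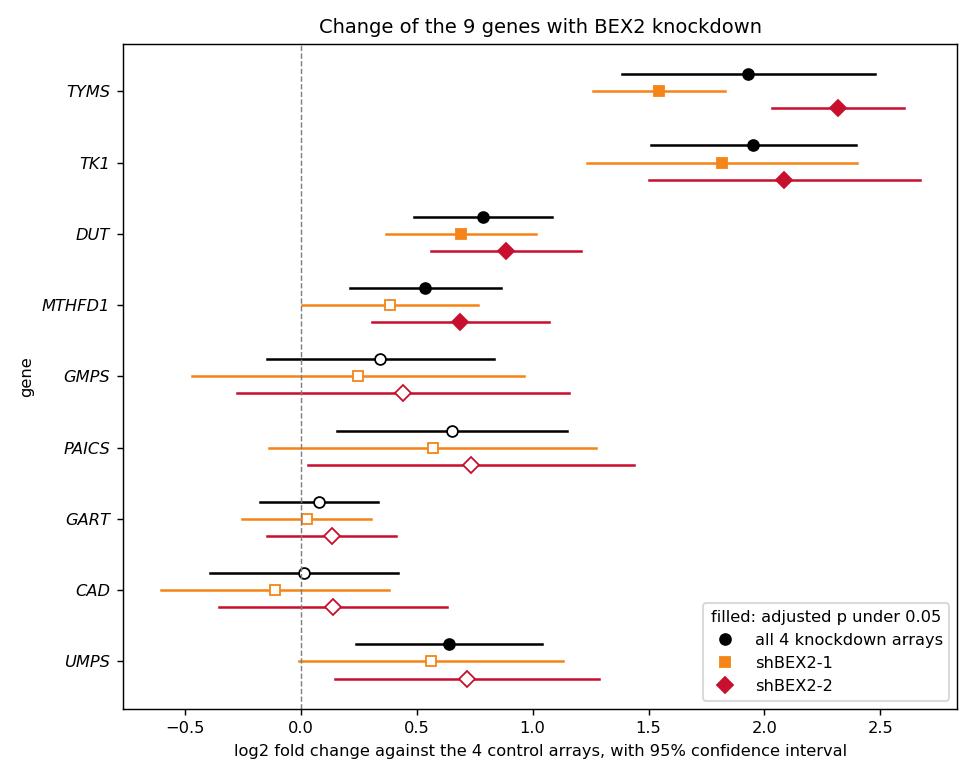
Log2 fold change (horizontal axis) of each of the 9 genes against the 4 control arrays, with 95% confidence intervals, for all 4 knockdown arrays (black circles), shBEX2-1 (orange squares) and shBEX2-2 (red diamonds). Filled symbols passed an adjusted p of 0.05. TYMS and TK1 lie between 1.54 and 2.32 throughout, and GART and CAD lie between -0.11 and 0.14.

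Each BEX2 hairpin was also compared with both control vectors in a model of the 4 vectors, so the hairpin comparisons share their control arrays. With shBEX2-1, 3 of the 9 genes rose, where 3.38% of all genes were called higher. They were TYMS by 1.54 (SE 0.12, adjusted p = 0.00631), TK1 by 1.82 (SE 0.24, adjusted p = 0.0125) and DUT by 0.69 (SE 0.13, adjusted p = 0.0355), all log2 fold changes from limma. With shBEX2-2, 4 of the 9 rose, where 4.86% of all genes were called higher. They were TYMS by 2.32 (SE 0.12, adjusted p = 0.00225), TK1 by 2.09 (SE 0.24, adjusted p = 0.00588), DUT by 0.88 (SE 0.13, adjusted p = 0.0133) and MTHFD1 by 0.69 (SE 0.16, adjusted p = 0.0461), again from limma. These calls rest on few arrays. Leaving out an array leaves 1 for its vector, and calls over the whole array then moved with the array left out. Counts of calls from such fits are no result about the 9 genes, so effect sizes are given here. With 1 array left out at a time, TYMS ranged from 1.49 to 1.598 with shBEX2-1, TK1 from 1.62 to 2.02 and DUT from 0.65 to 0.73. With shBEX2-2, TYMS ranged from 2.26 to 2.37 and TK1 from 1.89 to 2.28. DUT then ranged from 0.81 to 0.96 and MTHFD1 from 0.59 to 0.79, all log2 fold changes. With all 8 arrays, the call of DUT with shBEX2-1 was lost under quantile normalization (adjusted p = 0.0542 from limma). It was also lost with no filter on dim probes (adjusted p = 0.0636 from limma). That of MTHFD1 with shBEX2-2 was lost after normexp background correction (adjusted p = 0.0559 from limma) and with no filter (adjusted p = 0.0714 from limma). DUT with shBEX2-2 kept its call under these 3 settings, with adjusted p-values from 0.0139 to 0.0262 from limma.

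The remaining genes did not pass in either hairpin. UMPS had log2 fold changes of 0.56 with shBEX2-1 and 0.72 with shBEX2-2, and PAICS had 0.57 and 0.74. GMPS had 0.25 and 0.44, GART had 0.025 and 0.13, and CAD had -0.11 and 0.14. With the replicate number as a block, DUT with shBEX2-1 had an adjusted p of 0.0520 and MTHFD1 with shBEX2-2 had 0.0762, both from limma.

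All 9 genes had a higher mean with shBEX2-2 than with shBEX2-1, beside 44.5% of all genes. The 9 were read on the same arrays and are not separate observations. No difference between the hairpins passed the test for any of them, and 0.00977% of all genes were called in it. The largest was that of TYMS, 0.77 on the log2 scale with a 95% confidence interval from 0.45 to 1.10 (adjusted p = 0.142 from limma). The next were MTHFD1 at 0.30 (interval from -0.14 to 0.74) and TK1 at 0.27 (interval from -0.40 to 0.94). Between the control vectors no gene of the array was called by limma, while 1564 of 20464 had an unadjusted p under 0.05. The shNontarget arrays lay over 1 (log2) apart in 34.9% of genes, so this lack of calls does not show the control vectors to be alike. TYMS was 0.52 higher with shNontarget than with shControl, with an interval from 0.20 to 0.85 (adjusted p = 0.418 from limma).

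The order of the vectors by mean level was the same for TYMS, TK1 and DUT, from shControl through shNontarget and shBEX2-1 to shBEX2-2. For MTHFD1, GMPS, PAICS and UMPS the control vectors changed places, and in CAD the highest mean was that of shNontarget. Against shControl alone TYMS, TK1 and DUT rose with each hairpin, where 2.59% and 3.82% of all genes were called higher with shBEX2-1 and shBEX2-2. Against shNontarget alone TYMS and TK1 rose with shBEX2-1 and also DUT with shBEX2-2, where 1.5% and 3.22% of all genes were called higher. With the replicate number as a block, TYMS but not TK1 or DUT was called with shBEX2-1 against shNontarget. The share of all genes called in that blocked fit is not given here, so the loss of the TK1 call is no result about these genes.

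Because the shNontarget arrays stood apart from each other, the hairpins were also set against shControl in a model without them, a choice made after seeing the data. Then 6 of the 9 genes rose with shBEX2-1, with 22.8% of all genes called higher, and all 9 rose with shBEX2-2, with 21.6% of all genes called higher. In that model TYMS had an adjusted p of 0.00122 and MTHFD1 one of 0.0423, both from limma, for being higher with shBEX2-2 than with shBEX2-1, beside 7.51% of all genes called higher. The log2 fold changes against shControl ran from 0.046 for CAD to 1.93 for TK1 with shBEX2-1 and from 0.22 for GART to 2.58 for TYMS with shBEX2-2.

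The other genes of the same pathways, from lists compiled by hand with earlier results of these data known, moved unevenly. Their counts stand beside the 6.68% of all genes called higher, the 6.26% called lower and the all-gene median of 0.027. In the list of thymidylate and deoxynucleotide supply, 6 of 21 tested genes rose and 1 fell, with a median log2 fold change of 0.25. The ribonucleotide reductase subunits RRM2 and RRM1, which make deoxynucleotides, rose by 1.43 (SE 0.26) and 1.34 (SE 0.20), and SHMT1 rose by 1.05 (SE 0.21). DTYMK, the next kinase after TYMS and TK1, rose by 0.85, and NUDT1, which clears oxidised purine nucleotides, by 0.81. Taken by hairpin, NUDT1 passed with neither and DTYMK with shBEX2-2 only. TK2, the mitochondrial thymidine kinase, was the gene that fell, by 0.97 on the log2 scale.

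In the folate list, which shares SHMT1 with the one before, 3 of 21 tested genes rose and 6 fell, with a median of -0.15, against 6.68% higher, 6.26% lower and a median of 0.027 for all genes. SLC19A1, the reduced folate carrier, was among those that rose, with 0.66. MTHFD1L, which releases formate from mitochondria, had a log2 fold change of -1.33 (SE 0.12, adjusted p = 0.000716 from limma), and MTHFD2, a mitochondrial dehydrogenase of the same route, had -0.84. ALDH1L2, a mitochondrial formyl folate dehydrogenase, had -1.46 (SE 0.36, adjusted p = 0.0313 from limma). By hairpin, ALDH1L2 had -0.78 with shBEX2-1 (adjusted p = 0.108 from limma) and -2.14 with shBEX2-2 (adjusted p = 0.00478 from limma). SLC46A1, the proton-coupled folate transporter, with -0.89 and ALDH1L1 with -0.54 also fell. Taken by hairpin, MTHFD2, SLC46A1 and ALDH1L1 passed with neither, and SLC19A1 with shBEX2-2 only.

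In the purine list 2 of 24 genes rose and 1 fell, with a median of 0.19. These shares are near the 6.68% and 6.26% of all genes called, so the counts are no result about the list. PNP, a nucleoside phosphorylase of purine salvage that the array names NP, rose by 1.43 (SE 0.19, adjusted p = 0.00282 from limma), and the adenylate kinase AK1 rose by 0.92. XDH, which oxidises purines to urate, had -0.99 (SE 0.20, adjusted p = 0.0145 from limma). Taken by hairpin, AK1 and XDH passed with shBEX2-2 only. The early ring synthesis genes PPAT and PFAS did not pass, with 0.20 and 0.24, nor did ATIC with -0.057. In the pyrimidine list 2 of 17 tested genes rose and 1 fell, with a median of -0.074. Those counts too lie near the 6.68% and 6.26% of all genes and are no result about the list. CTPS1, named CTPS on the array, which turns uridine into cytidine nucleotides, rose by 0.75, and the uridine kinase UCK2 by 0.72. By hairpin, UCK2 passed with shBEX2-2 only. NT5M, a mitochondrial nucleotidase of thymidylate and deoxyuridylate, had -2.17 (SE 0.20, adjusted p = 0.000731 from limma).

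**Figure D3:**
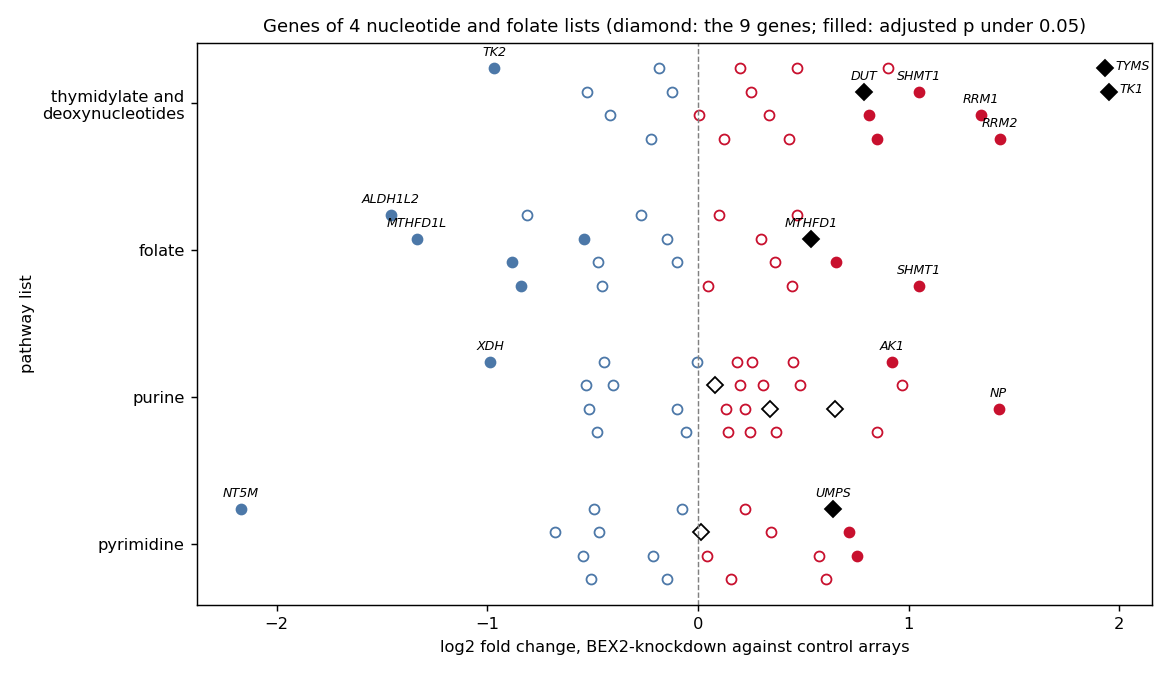
Log2 fold change between BEX2-knockdown and control arrays (horizontal axis) of the genes of 4 pathway lists reported here (rows, with genes spread vertically for legibility). Diamonds are the 9 genes and circles the other genes, red above 0 and blue below, and filled symbols passed an adjusted p of 0.05. The thymidylate row reaches highest, with TK1 at 1.95, and NT5M lies lowest at -2.17.

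Several of these genes are cytosolic and mitochondrial counterparts, and 4 such pairs were set side by side after their values had been seen, so they are given without a further test. TK1 rose by 1.95 while TK2 fell by 0.97, and MTHFD1 rose by 0.54 while MTHFD1L fell by 1.33. MTHFD1L read 0.50 to 0.68 in control cells and -0.92 to -0.61 in knockdown cells, so its groups lay apart as those of MTHFD1 did, in the other direction. SHMT1 rose by 1.05, and SHMT2 had -0.46 without passing (adjusted p = 0.106 from limma). For the nucleotidases the mitochondrial NT5M fell by 2.17 while the cytosolic NT5C had -0.15 and did not pass. These are not all such pairs in the lists. The cytosolic ALDH1L1 and the mitochondrial ALDH1L2 both fell, with -0.54 and -1.46.

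**Figure D4:**
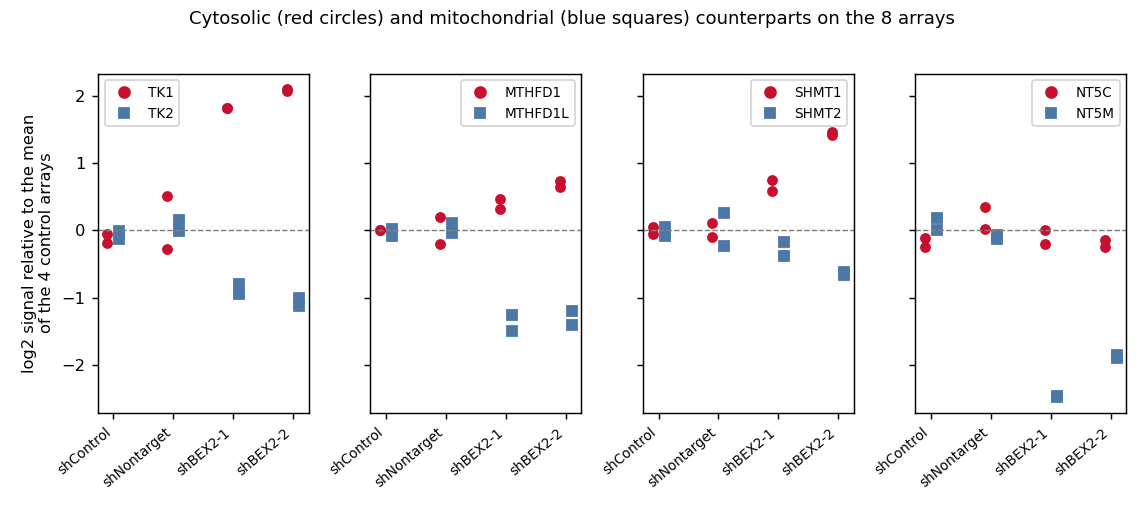
Log2 signal relative to the mean of the 4 control arrays (vertical axis) on each of the 8 arrays, by vector, for 4 cytosolic genes (red circles) and their mitochondrial counterparts (blue squares). The knockdown arrays lie above 0 for TK1, MTHFD1 and SHMT1 and below 0 for all 4 mitochondrial genes.

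Genes of S phase rose too. Of the S phase list of the Seurat package without TYMS, 39 of 42 genes rose and none fell, with a median log2 fold change of 1.54, against 6.68% of all genes called higher and a median of 0.027. RRM1 and RRM2 are in that list too, and its part in the rise of TYMS, TK1 and DUT was not tested. In RNA of whole cultures, more cells in S phase and more RNA per cell cannot be told apart.

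The genes whose pattern over the 8 arrays was most like that of each of the 9, by the root mean square difference of log2 signals centred on each gene's mean, were ATAD2 (0.102) and CDC45L (0.131) for TYMS and ESCO2 (0.0457) and DSCC1 (0.102) for TK1. For DUT they were RASSF1 (0.0687) and DUSP4 (0.0695), and for MTHFD1 they were LIMA1 (0.0521) and NUP155 (0.0525). For UMPS they were RBBP7 (0.0259) and HSP90AA1 (0.0528), and for PAICS DCPS (0.0397) and a transcript without a gene name, ENST00000437068 (0.0607). For GMPS they were NUDC (0.0347) and VDAC1 (0.0411). For GART they were NRD1 (0.0498) and CPSF4 (0.0516), and for CAD ANAPC2 (0.0429) and USP48 (0.0556). Among the 9, UMPS and PAICS were the closest to each other, at 0.0931.

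**Figure D5:**
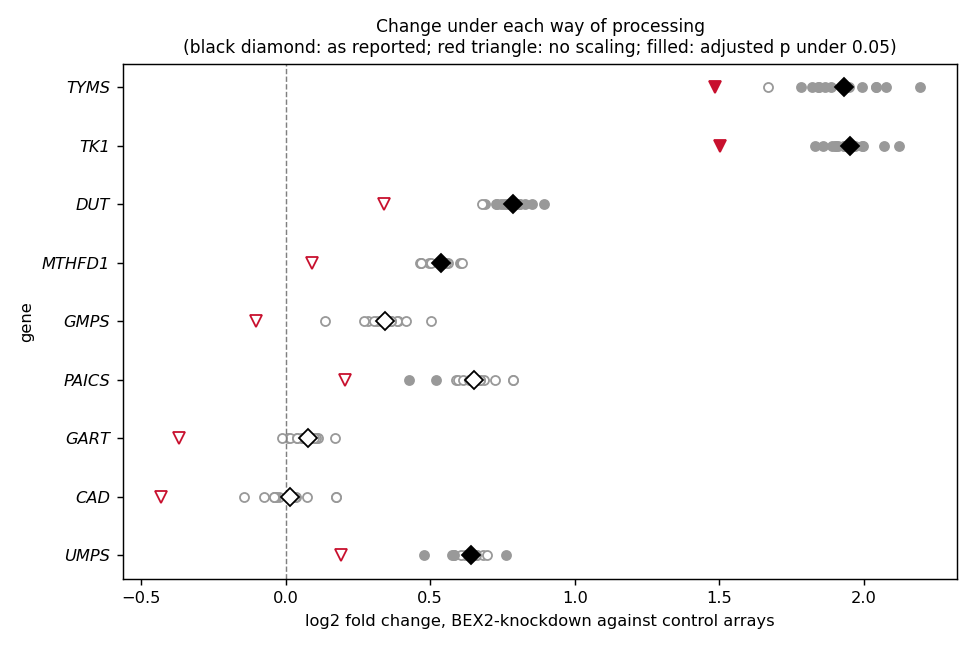
Log2 fold change between BEX2-knockdown and control arrays (horizontal axis) of the 9 genes as reported (black diamonds), under each alternative way of processing (grey circles) and without any scaling between arrays (red triangles), with filled symbols at an adjusted p under 0.05. TYMS and TK1 stay above 1.48 throughout, while GMPS, GART and CAD fall below 0 without scaling.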

How the data were processed

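HuCCT1 RNA was labelled with Cy3 by the authors, hybridized to single-colour Agilent arrays and read with Feature Extraction 10.7.3.1, as the submitters' processing notes name it. Per the file headers, that software subtracted background from each deposited intensity, removed spatial trends and put a surrogate in place of low values (19.9% to 25.9% of spots). No scaling between arrays had been applied. The authors' joint table gives these intensities again, to within 0.497%.

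Control spots and non-uniform spots (3 to 15 per array) were dropped. From log2 intensities each array's 75th percentile was subtracted, and repeat spots were averaged. A probe had to exceed background clearly on 4 or more of 8 arrays, and a gene was read by its brightest such probe, which left 20464 genes. No spot was saturated. Arrays were grouped by vector as labelled. Differences were tested with limma 3.58.1 in R 4.3.3 (lmFit and eBayes with an intensity trend, Benjamini-Hochberg adjustment over all genes), for 4 against 4 arrays and in a model of the 4 vectors. The script was tested on simulated data. Sequences were read with Python 3.11.15 and figures drawn with matplotlib 3.10.9. Gene positions, promoters and current symbols are those of RefSeq (GRCh38.p14).

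The 9 genes and the gene lists were chosen with earlier results of these data known. Named besides the 9 and BEX2 were, from each of 4 pathway lists, the 4 called genes with the largest change, the 2 genes most like each of the 9 in pattern, and markers of cell types. Some genes that this rule names are not reported here. Other called genes of those lists, SHMT2, NT5C, PPAT, PFAS and ATIC were named after their values were seen. Alternatives covered scaling, background correction, the filter on dim probes, the choice of probe, the test, the control vector, left-out arrays and pairing. The study's methods name rank product for arrays without a threshold. Of 20448 genes, in rank product over 16 pairs of arrays, TK1 stood at position 74 from the top, TYMS at 88, DUT at 1464, PAICS at 1980, UMPS at 2061, MTHFD1 at 2961, GMPS at 4651, GART at 10141 and CAD at 10513.

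The deposited file names give all replicate 1 arrays of the 4 vectors the same date and all replicate 2 arrays another, which was taken as pairing them. Deviations from the vector means of same-numbered arrays correlated between -0.063 and 0.26 over the pairs of vectors. Blocked values are given where they change a call.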

Additional observations from a re-analysis of the deposited data

Results flagged for a closer look

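Among the 4 control arrays, CAD on shNontarget replicate 2 lay far from the others, at a normalized log2 signal of 2.17 against 1.52 to 1.53. Its gap to the nearest other array was 0.990 of the whole range, above Dixon's critical value for 4 arrays. It was the only one of 20 groups of 4 arrays so marked, and chance marks about 1 in 20.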

How the results depend on the processing

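TK1 kept its call between knockdown and control cells under all 23 alternatives, with adjusted p-values from 0.000123 to 0.0385 from limma or the methods' t-test. TYMS lost it under 1 and DUT under 2, while MTHFD1 lost it under 14 and UMPS under 15, and PAICS gained one under 3. In place of 5 genes called higher there were 3 (TYMS, TK1 and DUT) after normexp background correction, with no filter on dim probes, without the intensity trend, with the methods' t-test after Benjamini-Hochberg adjustment, and with centring on each array's median, and 1 (TK1) with shNontarget alone as control. With the replicate number as a block, which pairs arrays of the same number, there were also 3, and 1 in place of 2 for shBEX2-1 against shNontarget, as with no filter. The methods' t-test without adjustment called 5417 genes and 6 of the 9. In either direction, 2648 of all 20464 genes were called as reported and 2814 of 20464 after normexp. With no filter 2104 of 34809 were called, and with the adjusted t-test 2168 of 20448. For shBEX2-1 against shNontarget, 393 of 34809 were called with no filter and 638 of 20464 as reported. Counts over all genes for the other alternatives are not given here. How many of the 9 genes were called under those alternatives is thus no result about the 9. Centring on medians and the absence of scaling were tried after seeing the data, as was the model without shNontarget. Median centring left 2 genes called for shBEX2-2 against both controls, and 1 each for shBEX2-1 against shControl, shBEX2-1 against shNontarget and shBEX2-2 against shNontarget. Without scaling the median of all genes was -0.42 in place of 0.027, 2 genes were called higher between knockdown and control cells and 2 with shBEX2-2, 0 with shBEX2-1 against shNontarget, and 2 were called lower with shBEX2-1 against both controls. The signs of GMPS (-0.10), GART (-0.37) and CAD (-0.43) then turned, as did those of MTHFD1 (-0.26), GMPS (-0.39), PAICS (-0.073), GART (-0.62) and UMPS (-0.080) with shBEX2-1 and of GART (-0.12) and CAD (-0.11) with shBEX2-2. CAD also turned to -0.023 after quantile normalization, -0.034 after normexp and -0.14 against shNontarget alone, and GART to -0.013 against shNontarget alone. With shBEX2-1, GART turned to -0.036 after quantile normalization, -0.043 after normexp and -0.022 with the mean of its probes. In the model without shNontarget the genes called higher were 6 and 9 against shControl, for shBEX2-1 and shBEX2-2, and 2 between the hairpins. The cause of these shifts was not tested.

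Leaving out 1 array at a time gave 3 to 6 genes called higher between knockdown and control cells, the 6 without either shNontarget array and the 3 without any other array. In the model of 4 vectors, where a lone array is assumed to vary like the others, the range was 0 to 7 for each hairpin against both controls or against shNontarget, 0 to 6 for shBEX2-1 and 0 to 9 for shBEX2-2 against shControl, 0 to 2 between the hairpins, and 0 to 6 between the control vectors. Genes called lower ranged from 0 to 1 for shBEX2-1 against both controls or shNontarget and from 0 to 3 between the control vectors. In the model of 4 vectors the highest counts of genes called higher all came without a shNontarget array. Calls over the whole array were far more frequent there too, in every comparison. These ranges of counts are thus no result about the 9 genes. CAD ranged from -0.075 to 0.17 between knockdown and control cells, from -0.27 to 0.049 with shBEX2-1 and from -0.020 to 0.30 with shBEX2-2. With shBEX2-1, GMPS ranged from -0.030 to 0.52 and GART from -0.00066 to 0.050. Without either shNontarget array, between 10536 and 11149 genes of the array were called for each hairpin against both controls.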
